A study of Homo sapiens with 8 samples.

Results

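Natural killer (NK) cells decide whether to kill a target by weighing signals from activating and inhibitory receptors against the ligands that the target displays. NKG2D, an activating receptor, binds MICA, MICB and the ULBP/RAET1 proteins, a family of MHC class I-like molecules that cells display under stress or after transformation. PVR (CD155) and NECTIN2 (CD112) are cell adhesion molecules that bind the activating receptor DNAM-1 (CD226) and the inhibitory receptor TIGIT, and NCR3LG1 (B7-H6) binds the activating receptor NKp30. Neuroblastoma (NB) cells commonly display little MHC class I, and the ligands of activating receptors are for that reason of interest in this tumor.

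The 10 genes described here are the rows of the count matrix whose Ensembl identifier maps to MICA, MICB, ULBP1, ULBP2, ULBP3, RAET1G, PVR, NECTIN2, NECTIN3 or NCR3LG1, out of 60676 identifiers. They were measured by RNA-seq in hanging-drop aggregates of IGR-N91, an established line of human NB cells. The 8 libraries fell into 4 groups of 2: aggregates in control medium, in medium conditioned by sympathetic ganglia of chick embryos at embryonic day 8 (E8-cSGcm, spelled E8-cGScm in the labels), in medium conditioned by chick dorsal root ganglia of the same day (E8-cDRGcm), and in medium conditioned by sympathetic ganglia of mouse embryos (E15.5-mSGcm, spelled E15.5-mGScm in the labels, with the embryonic day in the name). Exposure lasted 20 h by the labels of the libraries and 24 h by the design text of the series. The labels name the same line for every library and no other cells, so the values describe ligand RNA in tumor cells and not killing. The labels do not say whether the libraries of a group came from separate cultures, so that p-values measure the spread between these libraries only, which may be technical.

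Library totals ranged from 7930765 to 15060744 counts, and both E15.5-mSGcm libraries (7930765 and 8937397) were below all others. A level of 3 counts, taken as the detection floor, corresponded to 0.199 to 0.378 CPM (counts scaled to the library total). The floor covers counting error only. Noradrenergic NB markers were present, with 11 of 12 detected and a summed level of 7660 to 7810 CPM in control medium, 5620 to 5990 in E8-cSGcm, 4180 to 4200 in E8-cDRGcm and 4630 to 4820 in E15.5-mSGcm. MYCN made up most of this sum in control medium, with means of 4690 CPM there, 3460 in E8-cSGcm, 2450 in E8-cDRGcm and 2590 in E15.5-mSGcm. Single markers differed: in E15.5-mSGcm 5 of 11 tested were called lower, among them TH (log2 fold change -3.03), and 0 higher, with DBH at 0.47. CHGA was listed at 0. NK cell markers summed to 0.730 to 2.69 CPM, and KLRK1, the gene of NKG2D itself, had 0 reads in all 8 libraries. CD226, the gene of DNAM-1, was called higher in E15.5-mSGcm on 7 and 16 reads against 4 and 2 in control medium (log2 fold change 2.65, edgeR adjusted p = 0.00144), and KLRC1 had 3 to 15 reads per library. Glial and fibroblast markers summed to 161 to 177 CPM in control medium, 219 to 228 in E8-cSGcm, 193 to 200 in E8-cDRGcm and 161 to 174 in E15.5-mSGcm. SOX10 and FABP7 were at 0, while 5 of 8 tested markers of that list were called higher in E15.5-mSGcm, among them PDGFRA (log2 fold change 3.65), DCN (2.30) and COL1A2 (2.01), and 1 was called lower, COL1A1 (-1.82), the most abundant of the 3 collagen genes on the list in control medium. The part of these marker changes in the ligand results was not tested. In bulk RNA, fewer cells of a type and less RNA per cell cannot be told apart.

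The ligand genes lie in a few places of the genome. On GRCh37, MICA (ENSG00000204520) spans chr6:31367561-31383092 and MICB (ENSG00000204516) chr6:31462658-31478901, both within the MHC region. The ULBP/RAET1 genes sit together farther along the same chromosome, with RAET1G (ENSG00000203722) at chr6:150238014-150244257, ULBP2 (ENSG00000131015) at chr6:150263150-150270371, ULBP1 (ENSG00000111981) at chr6:150285079-150294851 and ULBP3 (ENSG00000131019) at chr6:150382189-150390257. PVR (ENSG00000073008, chr19:45147098-45169430) and NECTIN2 (ENSG00000130202, chr19:45349432-45392480) lie near each other on chromosome 19, with other genes between them. NECTIN3 (ENSG00000177707) lies at chr3:110788918-110994410 and NCR3LG1 (ENSG00000188211) at chr11:17373347-17398888.

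The regions just upstream of these genes were compared to see which sequence features the members share. The 250 bases before the RefSeq start (GRCh38.p14) are shown 5′ to 3′ on the strand of the gene. They are given for NECTIN2 and ULBP1, which rose in chick ganglion media. ULBP3, which lies near ULBP1 and was not called, and NECTIN3, a nectin that did not rise, are given too. Capitals mark GC boxes (GGGCGG on either strand), the letters that Sp1-type factors are known to bind. The windows are chr19:44846047-44846296 for NECTIN2, chr6:149963693-149963942 for ULBP1, chr6:150069122-150069371 (minus strand) for ULBP3 and chr3:111071566-111071815 for NECTIN3.
NECTIN2: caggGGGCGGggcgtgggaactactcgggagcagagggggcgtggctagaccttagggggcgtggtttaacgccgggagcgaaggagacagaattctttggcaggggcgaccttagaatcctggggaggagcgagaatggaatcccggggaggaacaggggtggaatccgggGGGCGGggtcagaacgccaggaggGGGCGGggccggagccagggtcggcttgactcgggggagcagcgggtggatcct
ULBP1: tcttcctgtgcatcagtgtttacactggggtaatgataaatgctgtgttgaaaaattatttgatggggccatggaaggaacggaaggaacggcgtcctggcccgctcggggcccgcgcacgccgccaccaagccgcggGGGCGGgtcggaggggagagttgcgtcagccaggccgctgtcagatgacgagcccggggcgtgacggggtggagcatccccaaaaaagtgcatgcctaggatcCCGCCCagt
ULBP3: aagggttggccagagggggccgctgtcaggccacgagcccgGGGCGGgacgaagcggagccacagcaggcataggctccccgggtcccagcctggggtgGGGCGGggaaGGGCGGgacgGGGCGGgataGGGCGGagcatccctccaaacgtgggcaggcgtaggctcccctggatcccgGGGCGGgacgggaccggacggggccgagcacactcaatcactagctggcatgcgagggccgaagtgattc
NECTIN3: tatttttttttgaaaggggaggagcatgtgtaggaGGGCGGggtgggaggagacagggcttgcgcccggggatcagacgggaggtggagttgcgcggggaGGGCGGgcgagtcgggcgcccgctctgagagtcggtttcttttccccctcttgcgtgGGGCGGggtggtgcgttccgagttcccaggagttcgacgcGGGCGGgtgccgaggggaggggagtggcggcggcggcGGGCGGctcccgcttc
GC boxes were found upstream of 9 of the 10 members, all but PVR, against 42.3% of 27305 RefSeq promoter windows of the same length. The windows held 3 boxes in NECTIN2, 2 in ULBP1, 6 in ULBP3 and 5 in NECTIN3, so that genes with and without a call both carry them. GC content was 67.6% in NECTIN2, 61.6% in ULBP1, 72.0% in ULBP3 and 69.2% in NECTIN3, with a median of 58.0% over all windows. A heat shock element (GAANNTTC) was present upstream of MICA and MICB only, against 5.85% of windows. The E-box CACGTG (6.49% of windows), the letters TGACGT from the cyclic AMP response element (7.42%), the AP-1 site TGANTCA (6.60%), the amino acid response core TGATGNAA (3.19%) and the letters GGGANTTTC from the start of the NF-kB site (1.15%) were in 0 of the 10 windows. All motifs were searched on both strands. A match is a description of letters, not of a bound site.

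The first question is which ligands the NB cells expressed. Of the 10 genes, 6 passed the filter on low counts and were tested: ULBP1, ULBP3, PVR, NECTIN2, NECTIN3 and NCR3LG1. Set per length (RPKM, counts scaled to exonic length and library total), NECTIN3 had the highest level in control medium, with 11.7 and 11.1 RPKM in the 2 libraries. It was followed by NECTIN2 (8.00 and 7.20 RPKM), PVR (6.10 and 6.64 RPKM) and NCR3LG1 (5.80 and 5.96 RPKM). The ranges of these 4 genes did not overlap between neighbors in that order, but each gene had only 2 values. The order depends on the length used, all annotated exons of a gene (10427 bases for PVR, 3742 for NECTIN2). In CPM the means in control medium were 66.4 for PVR and 28.4 for NECTIN2. The NKG2D ligands were far lower, with 0.671 and 0.726 RPKM for ULBP3 and 0.410 and 0.269 RPKM for ULBP1. In control medium NECTIN3 stood above 70.2% of the 12375 tested protein-coding genes on this scale, NECTIN2 above 59.0%, PVR above 54.5% and NCR3LG1 above 52.0%, against 14.6% for ULBP3 and 9.07% for ULBP1.

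**Figure D1:**
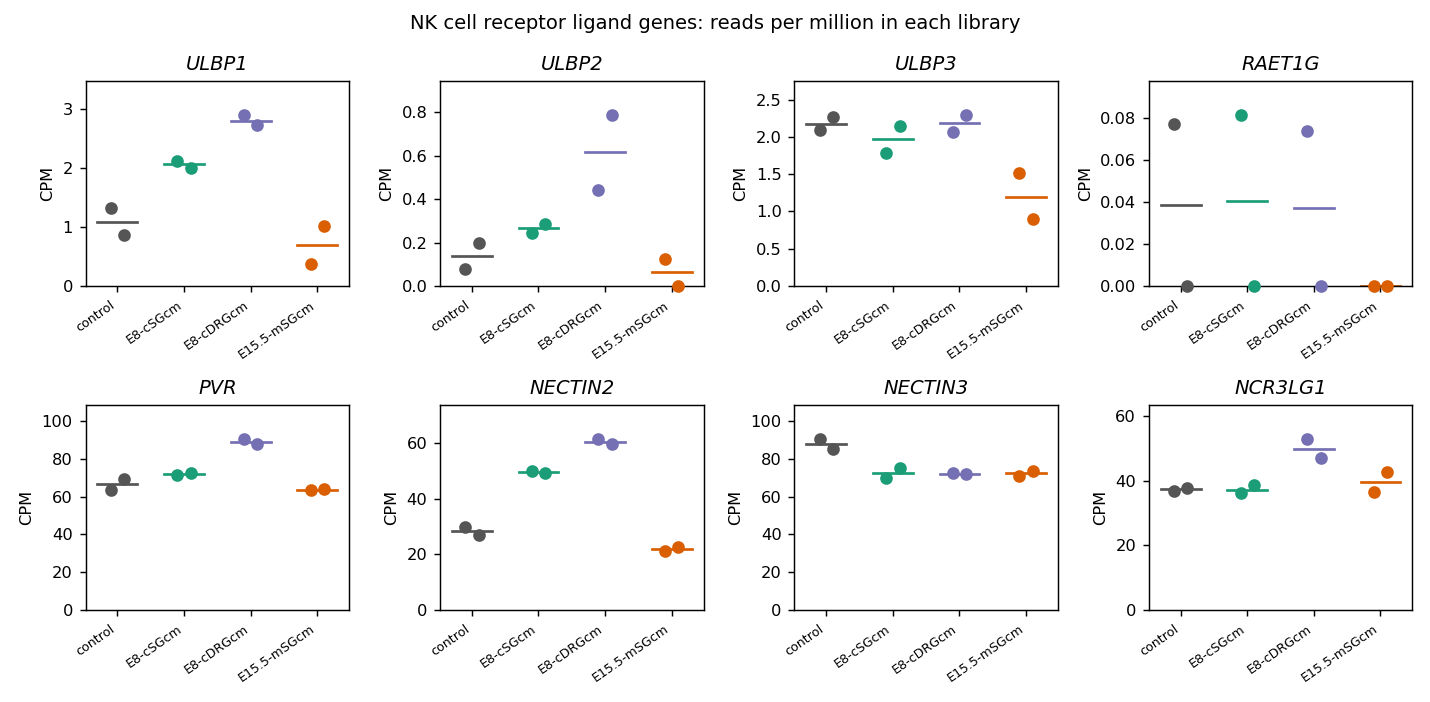
Levels in CPM (vertical axes from 0, a separate scale for each gene) of the 8 ligand genes with at least 1 read, by medium; each point is a library and each line the mean of the 2 libraries of a group. NECTIN2 and ULBP1 sit higher in both chick ganglion media than in control medium, NECTIN2 by means of 49.5 and 60.5 against 28.4 CPM.

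ULBP2 and RAET1G were below the filter. ULBP2 had 1 and 3 reads in control medium, 3 and 4 in E8-cSGcm, 6 and 11 in E8-cDRGcm and 1 and 0 in E15.5-mSGcm, 29 reads in all. Its highest libraries were thus those of E8-cDRGcm, at 0.444 and 0.786 CPM. RAET1G had 3 reads over the 8 libraries. With the filter lowered to 1 read in total, ULBP2 in E8-cDRGcm differed from control by a log2 fold change of 2.08 (SE 0.849, edgeR adjusted p = 0.0565) and E15.5-mSGcm from E8-cDRGcm by -3.23 (SE 1.17, edgeR adjusted p = 0.0246). In fits that each left out 1 library, ULBP2 could pass the filter only on its 11 reads in E8-cDRGcm 2, from the medium where it was highest. Calls of ULBP2 in such fits are therefore no support for a rise. Of all 75-base windows of ULBP2 transcripts, 20.8% also occur in transcripts of RAET1L or RAET1G, so reads of these near-identical genes are uncertain. The share was 10.1% for RAET1G, 6.19% for ULBP3 and 3.09% for ULBP1.

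MICA and MICB, the NKG2D ligands of the MHC region, were listed at 0 in all 8 libraries. These zeros cannot be read as a lack of expression. Between 29 and 33 Mb of chromosome 6 (GRCh37), 148 of 153 protein-coding genes (96.7%) had 0 reads in every library, against 176 of 883 (19.9%) on the rest of the chromosome and 3794 of 18801 (20.2%) on the other chromosomes. The genes at 0 include DDX39B, an RNA helicase of mRNA export, TUBB, a tubulin, and CSNK2B, the regulatory subunit of casein kinase 2, which growing cells are known to use. HLA-C and HLA-E, which encode inhibitory ligands, were at 0 as well. BAG6, which encodes another ligand of NKp30, lies in the same stretch and was at 0 too. Only 23 of 4129 75-base windows of MICA transcripts (0.557%) and 0 of 2793 of MICB occur in transcripts of other genes. That search compared different genes only. Further copies of the same gene would not show in it, and it was not a test of the zeros. The cause of the zeros was not tested, and MICA, MICB and BAG6 are treated as not measured here.

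**Figure D2:**
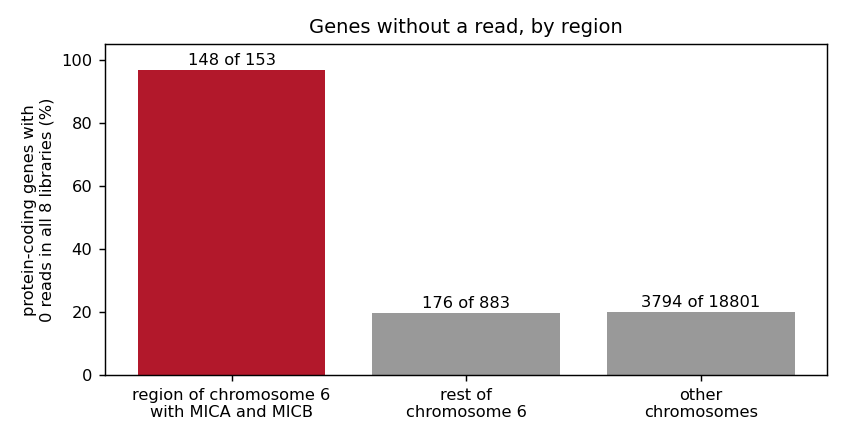
Share of protein-coding genes with 0 reads in all 8 libraries (%, bars from 0) for 29 to 33 Mb of chromosome 6 (GRCh37), the rest of chromosome 6 and the other chromosomes; the numbers over the bars are genes at 0 of all genes. The region of MICA and MICB stands at 96.7% against 19.9% and 20.2%.

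Then the question is how each ganglion medium moved the ligands. A gene was called at an edgeR adjusted p under 0.05 together with a fold change of at least 1.5. In E8-cSGcm, 2 of the 6 tested ligand genes, NECTIN2 and ULBP1, were called higher, where 4.73% of the 16680 tested genes were called higher. In E8-cDRGcm the same 2 genes were called higher, against 9.81% of all genes. None was called lower in either chick medium, against 3.86% and 10.9% of all genes. In E15.5-mSGcm, 0 of the 6 were called in either direction by edgeR or by DESeq2, with 3 of 6 at an unadjusted edgeR p under 0.05, and the background was 6.65% called higher and 7.27% called lower. The median log2 fold change of the 6 genes was 0.05 in E8-cSGcm, 0.46 in E8-cDRGcm and -0.29 in E15.5-mSGcm, against 0.01, 0.01 and -0.02 over all genes tested. The 3 comparisons share the control libraries.

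NECTIN2 gave the clearest change. It had 387 and 406 reads in control medium, 612 and 688 in E8-cSGcm, 831 and 833 in E8-cDRGcm and 168 and 201 in E15.5-mSGcm, which correspond to 28.4 ± 2.11, 49.5 ± 0.428, 60.5 ± 1.40 and 21.8 ± 0.924 CPM (SD, n = 2). No group overlapped another: E8-cDRGcm was highest, then E8-cSGcm, then control medium, with E15.5-mSGcm lowest. NECTIN2 was upregulated 1.73-fold in E8-cSGcm (log2 fold change 0.79, 95% interval 0.63 to 0.95, edgeR adjusted p = 5.79e-10). The rise was 2.19-fold in E8-cDRGcm (log2 fold change 1.13, 0.98 to 1.29, edgeR adjusted p = 5.51e-15). In E15.5-mSGcm its level was 1.26-fold lower (log2 fold change -0.33, -0.53 to -0.13, edgeR adjusted p = 0.00721, range over settings 0.00134 to 0.535), under the fold limit. Both upward calls were kept under each of 20 alternative settings, with log2 fold changes of 0.71 to 0.87 and 1.06 to 1.21. Per length, NECTIN2 rose from above 59.0% of tested protein-coding genes in control medium to above 74.2% in E8-cSGcm and 79.5% in E8-cDRGcm, and stood above 52.9% in E15.5-mSGcm.

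PVR, which shares the receptors DNAM-1 and TIGIT with NECTIN2, moved less. It had 822 and 1043 reads in control medium, 880 and 1014 in E8-cSGcm, 1222 and 1225 in E8-cDRGcm and 505 and 570 in E15.5-mSGcm. On the CPM scale the libraries of E8-cDRGcm (90.5 and 87.6) were above all others, which lay between 63.6 and 72.5. In E8-cDRGcm PVR was 1.38-fold higher than in control medium (log2 fold change 0.46, 0.33 to 0.59, edgeR adjusted p = 1.02e-07), past the p limit but not the fold limit. The log2 difference from control was 0.11 in E8-cSGcm (-0.03 to 0.24, edgeR adjusted p = 0.226) and -0.02 in E15.5-mSGcm (-0.16 to 0.12, edgeR adjusted p = 0.855). Of the 75-base windows of PVR transcripts, 18.1% also belong to transcripts of CEACAM19 or ENSG00000279095, so part of its count is uncertain.

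The balance between the 2 DNAM-1 ligands differed by medium. The per-length ratio of NECTIN2 to PVR was 1.31 and 1.08 in the libraries of control medium, 1.94 and 1.89 in E8-cSGcm, 1.89 and 1.89 in E8-cDRGcm and 0.927 and 0.983 in E15.5-mSGcm. The chick medium libraries were all above the control libraries, and those of E15.5-mSGcm were below them. The size of this ratio depends on the exonic lengths used, but its order between media does not. With 2 libraries in a group, an exact permutation test of a single ratio cannot pass 0.05, and none was made. Summed over both genes, the level was 14.1 and 13.8 RPKM in control medium, 20.2 and 20.1 in E8-cSGcm, 25.1 and 24.3 in E8-cDRGcm and 11.8 and 12.1 in E15.5-mSGcm.

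**Figure D3:**
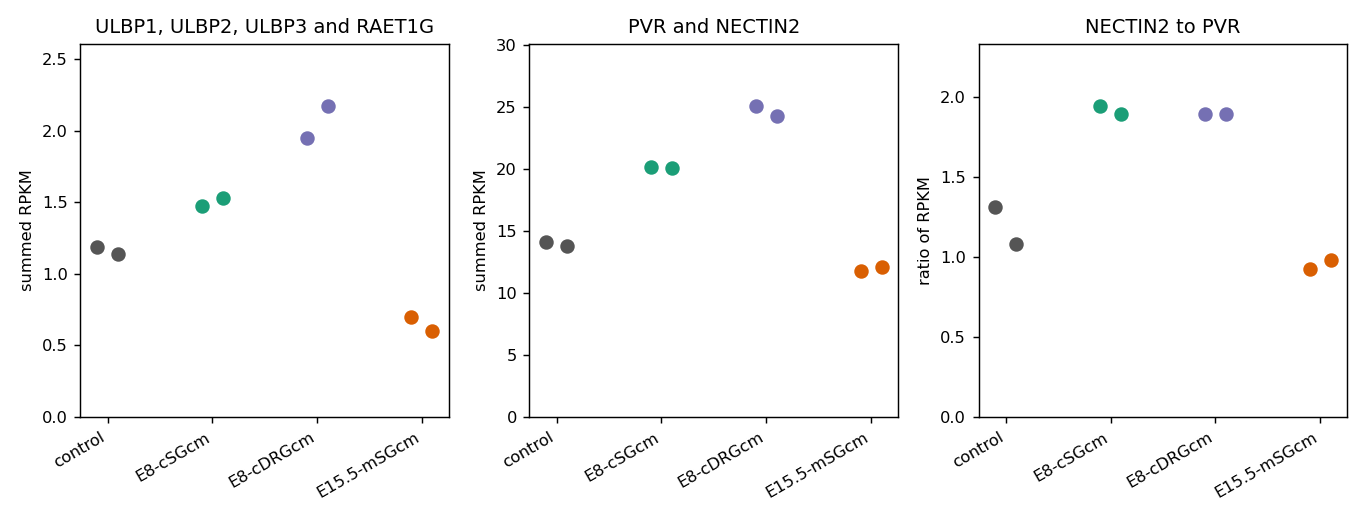
Levels per length (RPKM) summed over the NKG2D ligands ULBP1, ULBP2, ULBP3 and RAET1G (left) and over PVR and NECTIN2 (middle), and the ratio of NECTIN2 to PVR (right), with 1 point per library and axes from 0. Libraries of both chick media lie above control in all 3 panels, and E15.5-mSGcm libraries lie below it.

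ULBP1, an NKG2D ligand anchored to the membrane by a glycolipid, moved in the same order but on few reads. Its counts were 17 and 13 in control medium, 26 and 28 in E8-cSGcm, 39 and 38 in E8-cDRGcm and 3 and 9 in E15.5-mSGcm. In CPM the chick medium libraries (2.12 and 2.00, then 2.89 and 2.72) were above all control libraries (1.32 and 0.863), while those of E15.5-mSGcm (0.378 and 1.01) overlapped with control. The increase in E8-cDRGcm was 2.66-fold (log2 fold change 1.41, 0.73 to 2.09, edgeR adjusted p = 0.000573). In E8-cSGcm it was 1.89-fold (log2 fold change 0.92, 0.19 to 1.65, edgeR adjusted p = 0.0470), close to the limit. This call was lost in 11 of 19 alternative settings that tested the gene, whose adjusted p ranged from 0.0420 to 0.581, and among them was leaving out the library control 2 (log2 fold change 0.63, adjusted p = 0.333). The call in E8-cDRGcm was lost in 1 of 19, DESeq2 without independent filtering (adjusted p = 0.0607, range over settings 0.000304 to 0.0607). In E15.5-mSGcm the difference from control was -0.55 on the log2 scale (-1.57 to 0.48, edgeR adjusted p = 0.425).

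ULBP3, another glycolipid-anchored NKG2D ligand on the same stretch of chromosome 6, did not share that pattern of counts. It had 27 and 34 reads in control medium, 22 and 30 in E8-cSGcm, 28 and 32 in E8-cDRGcm and 12 and 8 in E15.5-mSGcm. Both chick media overlapped with control in CPM, and the libraries of E15.5-mSGcm (1.51 and 0.895) were below all others. The log2 difference from control was -0.15 in E8-cSGcm (-0.76 to 0.46), 0.04 in E8-cDRGcm (-0.55 to 0.64) and -0.83 in E15.5-mSGcm (-1.59 to -0.06, edgeR adjusted p = 0.0817). Reads over ULBP1, ULBP2, ULBP3 and RAET1G together came to 46 and 50 in control medium, 52 and 62 in E8-cSGcm, 74 and 81 in E8-cDRGcm and 16 and 17 in E15.5-mSGcm. Per length these sums were 1.19 and 1.14 RPKM in control medium, 1.47 and 1.53 in E8-cSGcm, 1.95 and 2.17 in E8-cDRGcm and 0.699 and 0.601 in E15.5-mSGcm, with no overlap between groups.

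NECTIN3, an adhesion molecule that pairs with other nectins and with PVR across cell contacts, was slightly lower in each conditioned medium. Its counts were 1172 and 1285 in control medium, 859 and 1048 in E8-cSGcm, 979 and 1009 in E8-cDRGcm and 563 and 659 in E15.5-mSGcm. In CPM both control libraries (90.7 and 85.3) were above the 6 others (69.9 to 75.0), and the means of the conditioned media were 72.4, 72.3 and 72.4. The log2 fold changes were -0.29 (-0.42 to -0.16, edgeR adjusted p = 0.000415) in E8-cSGcm, -0.24 (-0.37 to -0.12, edgeR adjusted p = 0.00138) in E8-cDRGcm and -0.24 (-0.37 to -0.10, edgeR adjusted p = 0.00423) in E15.5-mSGcm. They passed the p limit but correspond to folds of 1.22, 1.18 and 1.18, under the fold limit. Because the media share the control libraries, the likeness of the 3 values is not independent evidence. Between media the differences of NECTIN3 were 0.05, 0.05 and 0.00 on the log2 scale, with intervals inside -0.13 and 0.19.

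NCR3LG1 had 477 and 571 reads in control medium, 444 and 539 in E8-cSGcm, 716 and 657 in E8-cDRGcm and 289 and 381 in E15.5-mSGcm. In CPM the libraries of E8-cDRGcm (53.0 and 47.0) were above all others (36.1 to 42.6). It was 1.37-fold higher in E8-cDRGcm than in control medium (log2 fold change 0.46, 0.29 to 0.62, edgeR adjusted p = 1.09e-05), past the p limit only. The log2 differences were -0.01 (-0.18 to 0.16) in E8-cSGcm and 0.13 (-0.06 to 0.31) in E15.5-mSGcm.

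**Figure D4:**
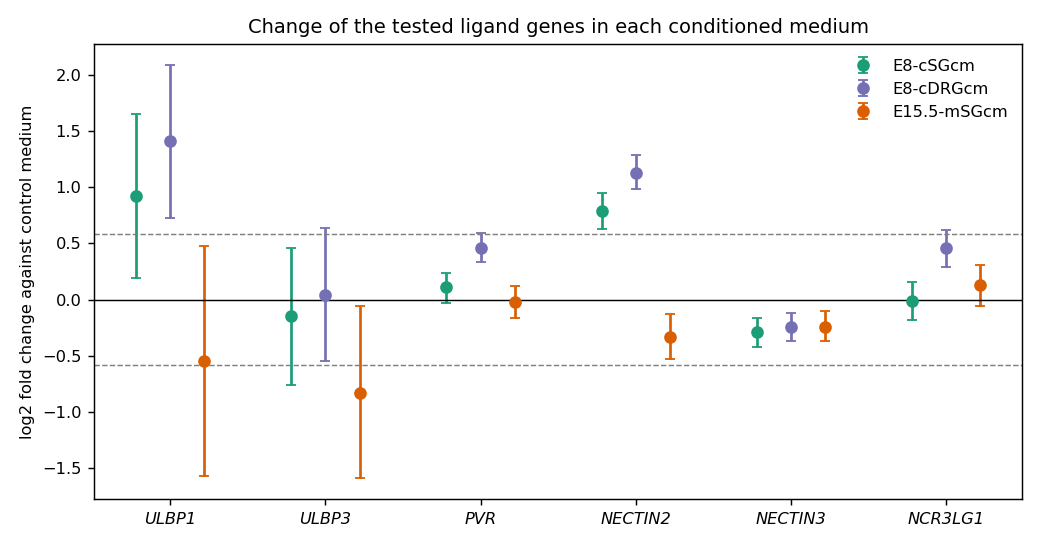
Log2 fold change against control medium of the 6 tested ligand genes, with a point for each conditioned medium and bars for the 95% interval from edgeR; dashed lines mark a fold of 1.5 in either direction (0.585 on the log2 scale). The intervals of NECTIN2 in both chick media lie wholly above the upper line, and those of ULBP1 and ULBP3 are the widest.

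The media were also compared with each other. E8-cDRGcm against E8-cSGcm tests the kind of ganglion within the chick at the same embryonic day, and 0 of the 6 genes were called by edgeR or DESeq2 (3 of 6 at an unadjusted edgeR p under 0.05), against 7.49% of all tested genes. The 3 were PVR (log2 fold change 0.36, 0.23 to 0.48), NECTIN2 (0.34, 0.19 to 0.49) and NCR3LG1 (0.47, 0.30 to 0.63), all higher in E8-cDRGcm with edgeR adjusted p of 2.79e-05, 0.000362 and 2.31e-05 but under the fold limit. ULBP1 differed by 0.49 (-0.11 to 1.10, edgeR adjusted p = 0.223). Against E8-cSGcm, E15.5-mSGcm had 2 of 6 genes called, where 22.3% of all genes were called in either direction. Against E8-cDRGcm it also had 2 of 6, where 26.2% were called, so these shares are read against a high background.

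In both comparisons the called genes were NECTIN2 and ULBP1, lower in the mouse medium. NECTIN2 was 2.18-fold lower in E15.5-mSGcm than in E8-cSGcm (log2 fold change -1.13, -1.31 to -0.94, edgeR adjusted p = 8.70e-13). Against E8-cDRGcm the log2 fold change was -1.47 (-1.65 to -1.28, edgeR adjusted p = 1.32e-16). ULBP1 gave -1.47 (-2.38 to -0.56, edgeR adjusted p = 0.00642) and -1.96 (-2.82 to -1.11, edgeR adjusted p = 0.000153). The call of ULBP1 against E8-cSGcm was lost in 3 of 19 settings, with DESeq2 (adjusted p = 0.0613), with DESeq2 without independent filtering (0.110) and without the library E15.5-mSGcm 1, which had 3 reads of this gene (log2 fold change -0.97, adjusted p = 0.124, range over settings 0.00395 to 0.124). Mouse and chick media differ in species and in embryonic day at once, and against E8-cDRGcm also in the kind of ganglion. These cannot be told apart.

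For the 2 called members, the genes with the most similar profile over the 8 libraries were listed among 11784 protein-coding genes with a mean of at least 1 CPM, as a description. NECTIN2 was closest to SNX10, a sorting nexin (Pearson r = 0.998), YBX3, a cold shock domain protein that binds nucleic acids (0.996), and GTPBP2, a GTP-binding protein (0.996). ULBP1 was closest to FAM72A (0.990), TNNT1, the slow skeletal troponin T (0.986), and RHOT1, a mitochondrial GTPase (0.983). FAM72A belongs to a group of near-identical copies and is uncertain. The points share libraries and groups, so that 8 libraries in 4 groups give many genes a high r.

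Other genes of the same system were counted by list. Of 15 other ligands of activating or adhesion receptors, 7 were tested and 7 had 0 reads. A place on this list does not mean that a gene activates NK cells. In E8-cSGcm 1 rose, in E8-cDRGcm 1 rose and 1 fell, and in E15.5-mSGcm 3 rose, with medians of 0.03, -0.34 and 0.95 on the log2 scale. NID1, the basement membrane protein nidogen-1, had 376 and 438 reads in control medium, 1054 and 1151 in E8-cSGcm, 1386 and 1413 in E8-cDRGcm and 174 and 214 in E15.5-mSGcm. It rose 2.87-fold in E8-cSGcm (edgeR adjusted p = 4.10e-19) and 3.60-fold in E8-cDRGcm (edgeR adjusted p = 1.32e-22), with the same order of media as NECTIN2.

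ICAM1, the adhesion ligand of the integrin LFA-1 on NK and T cells, was seen in 1 medium. It had 0 reads in both control libraries and both E8-cSGcm libraries, 0 and 1 in E8-cDRGcm, and 251 and 279 in E15.5-mSGcm. Set against a floor of 3 counts in each control library, its mean level of 31.4 CPM was at least 146-fold higher than in control medium (edgeR adjusted p = 1.55e-21). The list median of 0.95 is the same with ICAM1 at this bound. CD58, the ligand of CD2, had 28 and 14 reads in E15.5-mSGcm against 20 and 13 in control medium, a log2 fold change of 1.12 (edgeR adjusted p = 0.0284). In CPM its libraries were at 3.53 and 1.57 against 1.55 and 0.863, so the rise rests mainly on the library E15.5-mSGcm 1. PDGFD, a growth factor that binds the activating receptor NKp44, had 91 and 127 reads in control medium, 47 and 43 in E8-cDRGcm and 117 and 129 in E15.5-mSGcm. It fell in E8-cDRGcm (log2 fold change -1.21, edgeR adjusted p = 1.35e-06) and was among the 3 that rose in E15.5-mSGcm.

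Of 16 inhibitory ligands, 6 were tested, and 6 had 0 reads in every library, among them HLA genes of the region without reads. B2M, the light chain of MHC class I, differed from control by 0.16, 0.28 and 0.43 in the 3 media, under the fold limit in each. CDH1, E-cadherin, a ligand of the inhibitory receptor KLRG1, had 0 and 1 reads in E15.5-mSGcm against 13 and 7 in control medium (edgeR adjusted p = 0.0128).

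Of 7 nectin family partners, 6 were tested. CADM4 rose in E8-cSGcm, AFDN and CADM4 rose and CADM1 fell in E8-cDRGcm, and CADM1 and CADM2 rose in E15.5-mSGcm, with list medians of 0.38, 0.32 and 0.19. AFDN, the protein that ties nectins to the actin cytoskeleton, had 521 and 595 reads in control medium and 857 and 880 in E8-cDRGcm, where it rose 1.63-fold (edgeR adjusted p = 4.58e-10). CADM2, a synaptic adhesion molecule, had 124 and 163 reads in control medium and 190 and 200 in E15.5-mSGcm, a rise of 2.32-fold (edgeR adjusted p = 1.37e-09). NECTIN1, which binds NECTIN3, was measured at 9.70 ± 0.193 RPKM in control medium and 6.67 ± 0.359 RPKM in E15.5-mSGcm (SD, n = 2).

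Of 7 proteins that shed NK ligands, 6 were tested, with list medians of 0.04, 0.14 and 0.02. PDIA6, a disulfide isomerase that takes part in the release of MICA from the cell surface, rose 1.67-fold in E15.5-mSGcm (4068 and 4598 reads against 4089 and 4764 in control libraries of greater depth, edgeR adjusted p = 2.15e-15). The metalloproteases ADAM10 and ADAM17 differed from control by -0.02 and -0.01 in E8-cSGcm, 0.06 and 0.22 in E8-cDRGcm and 0.11 and 0.45 in E15.5-mSGcm on the log2 scale, under the fold limit in each.

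All 15 regulators of NKG2D ligand genes on the list were tested, with medians of 0.01, 0.21 and -0.03. In E8-cSGcm 1 fell, in E8-cDRGcm 1 rose and 1 fell, and in E15.5-mSGcm 1 rose and 1 fell. NFKB1, a subunit of NF-kB, had 616 and 756 reads in control medium, 360 and 485 in E8-cSGcm, 445 and 510 in E8-cDRGcm and 835 and 932 in E15.5-mSGcm. It fell in E8-cSGcm (log2 fold change -0.62, edgeR adjusted p = 1.72e-07) and rose in E15.5-mSGcm (1.14, edgeR adjusted p = 2.97e-15). In E8-cDRGcm, where NECTIN2 was highest, NFKB1 was lower but under the fold limit (log2 fold change -0.46). NECTIN2 rose in E8-cSGcm and was lower, under the fold limit, in E15.5-mSGcm. A link between NFKB1 and the ligand genes was not tested. MYCN, the oncogene amplified in many NB, had log2 fold changes of -0.45, -0.90 and -0.82, called lower in E8-cDRGcm and E15.5-mSGcm, and MYC rose in E8-cDRGcm on 25 and 26 reads against 10 and 9 (1.47, edgeR adjusted p = 0.00439). ATF4, a stress factor known to drive ULBP1, differed by -0.06 (-0.17 to 0.06), 0.22 (0.10 to 0.33) and -0.22 (-0.34 to -0.10), under the fold limit in each medium.

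**Figure D5:**
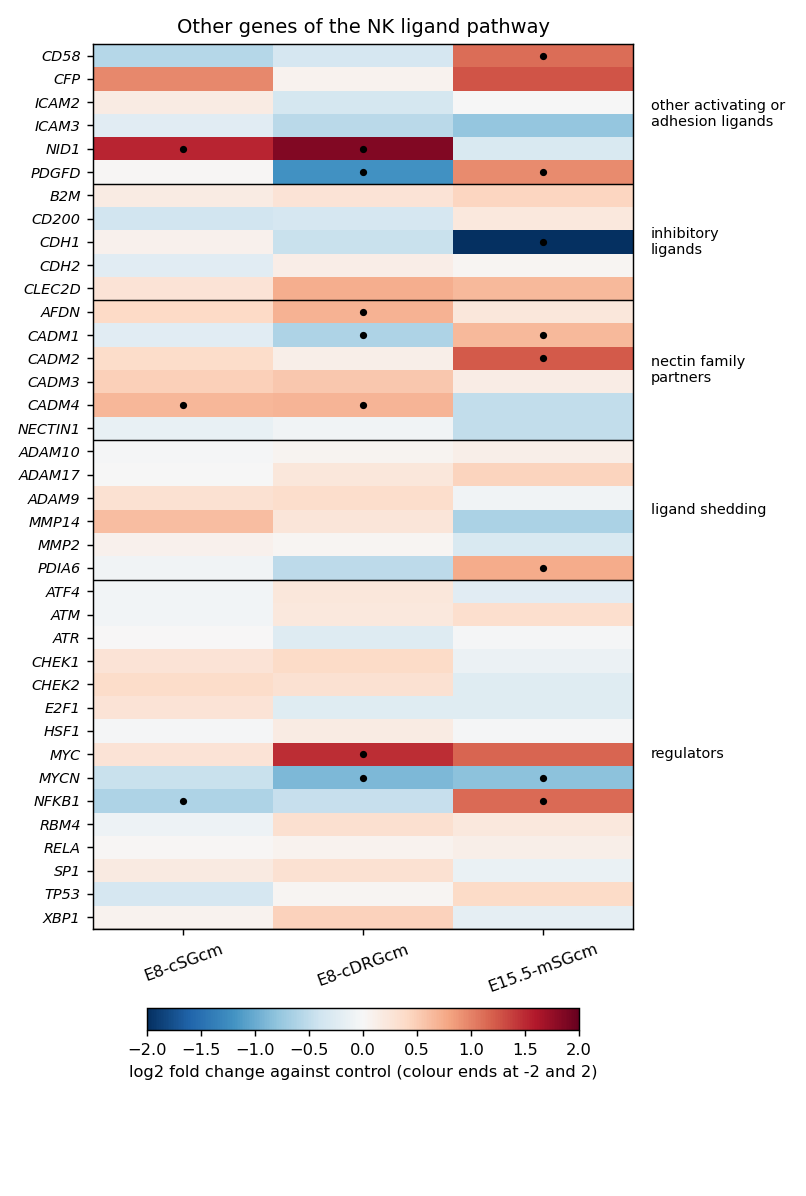
Log2 fold change against control medium (color, ending at -2 and 2) of 38 tested genes of the 5 lists in the 3 conditioned media; a dot marks a gene called by both limits. ICAM1 is left out because control had 0 reads; NID1 and CADM4 carry dots in both chick media and none in E15.5-mSGcm.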

How the data were processed

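Groups were read from the titles and culture conditions of the libraries. The authors made stranded total RNA libraries (50 ng of RNA, single reads of 75 bp), and deposited raw counts per Ensembl gene with no normalization. The submitters' processing notes name bcl2fastq 2.17.1.14, cutadapt 1.9.1, TopHat2 2.1.0 and HTSeq 0.11.3. The study's methods give hg19 and the notes hg38; the strand option and annotation release are not given in the sources used here.

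Symbols, positions and exonic lengths came from GENCODE release 44 mapped to GRCh37, for 58611 identifiers, and promoter windows from RefSeq GRCh38.p14, where all 10 members matched. After TMM scaling, the quasi-likelihood test of edgeR 4.0.16 (robust fit, low counts removed by filterByExpr with the groups given, Benjamini-Hochberg) was run in R 4.3.3 as 1 model of the 8 libraries with 6 contrasts. CPM and RPKM use library totals. Steps were tested on simulated data. Figures used matplotlib 3.10.9.

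Alternatives were DESeq2 1.42.0, RLE, upper quartile and total scaling, filters at 1 count in total and at 10 counts per library, fits on the compared libraries only, a call by adjusted p without the fold, a block for the replicate number, thinning to 7930765 counts, a spline correction (5 degrees of freedom) for GC content and length with and without that block, and leaving out each library. DESeq2 without independent filtering was added after seeing the data. The members and gene lists were chosen with earlier results of these data known. Named genes are the members and up to 3 genes per list with the largest change among those called. The 3 genes most like each called member are also named. NFKB1 in E8-cSGcm and E8-cDRGcm, COL1A1, CD226, KLRC1 and the uncalled genes given for their role were added after their values were seen. Some genes of the lists are not reported here.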

Additional observations from a re-analysis of the deposited data

Results flagged for a closer look

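The effect of the media differed between chick and mouse ganglia for NECTIN2 and ULBP1, by a direct test of one medium against the other. NECTIN2 was lower in E15.5-mSGcm by a log2 fold change of -1.13 (SE 0.0925, edgeR adjusted p = 8.70e-13) against E8-cSGcm and by -1.47 (SE 0.0898, edgeR adjusted p = 1.32e-16) against E8-cDRGcm, with both E15.5-mSGcm libraries below all 4 chick medium libraries in CPM. ULBP1 was lower by -1.47 (SE 0.450, edgeR adjusted p = 0.00642) and -1.96 (SE 0.422, edgeR adjusted p = 0.000153), again with both libraries below the 4, on 3 and 9 reads. The 2 libraries of E15.5-mSGcm were the shallowest. Thinning every library to 7930765 counts left these 4 calls in place, but that of ULBP1 against E8-cSGcm was lost with DESeq2 (adjusted p = 0.0613, or 0.110 without independent filtering) and without E15.5-mSGcm 1 (log2 fold change -0.97, adjusted p = 0.124). Species and embryonic day changed together, and against E8-cDRGcm the kind of ganglion changed as well. These cannot be told apart.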

How the results depend on the processing

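Of 708 values of members under alternative settings, 666 kept their direction and their call by both limits together (the adjusted p alone crossed 0.05 in some that were under the fold limit), 15 lost a call, 5 gained one and 22 turned, all of them with an absolute log2 fold change of at most 0.11 and adjusted p of at least 0.212. The calls of NECTIN2 held in each setting. In E8-cSGcm the count of called members fell from 2 to 1, through ULBP1, with DESeq2 (with and without independent filtering), both filters, only the libraries compared and the replicate block, alone or with GC and length correction (adjusted p of ULBP1 0.0528 and 0.0532). It ranged from 1 to 2 when libraries were left out. In E8-cDRGcm it was 1 with the filter at 10 counts, which removes ULBP1, and with DESeq2 without independent filtering, and 5 by adjusted p alone. By adjusted p alone it was 2 in E15.5-mSGcm, 3 for E8-cDRGcm against E8-cSGcm and 4 for E15.5-mSGcm against E8-cDRGcm. For E15.5-mSGcm against E8-cSGcm it was 1 with DESeq2 and the filter at 10 counts, and 1 to 2 without a library (1 without E15.5-mSGcm 1). Against E8-cDRGcm it was 1 with that filter and 2 to 4 without a library, through ULBP2, which the lower count filter of these fits lets in, and ULBP3, whose adjusted p of 0.0508 lies near the limit and which is also called with GC and length correction. In E8-cDRGcm against control the range was 2 to 3, through ULBP2.

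Turned values were 0.11 and -0.084 with thinning (NCR3LG1 in E8-cSGcm, NECTIN3 between chick media), -0.0041 and -0.0014 with totals only (NECTIN3, E8-cDRGcm and E15.5-mSGcm against E8-cSGcm), and, for NECTIN3 in E15.5-mSGcm against E8-cSGcm and E8-cDRGcm, -0.013 and -0.055 at 1 count and -0.098 and -0.10 with GC and length correction, with or without the block. Without single libraries the ranges were -0.056 to 0.031 for NCR3LG1 in E8-cSGcm, -0.038 to 0.12 for ULBP3 in E8-cDRGcm, -0.088 to 0.038 for PVR in E15.5-mSGcm, -0.0079 to 0.23 for NCR3LG1 in E15.5-mSGcm, -0.0056 to 0.09 for NECTIN3 in E15.5-mSGcm against E8-cSGcm and -0.036 to 0.026 for NECTIN3 in E15.5-mSGcm against E8-cDRGcm.

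All called genes numbered 839 with DESeq2, 754 without its filtering and 5213 by adjusted p alone in E8-cSGcm (main 1433), 8261 by adjusted p alone in E8-cDRGcm (3460), and 1426 without filtering and 6305 in E15.5-mSGcm (2322). Between media they were 690, 592 and 5037 for E8-cDRGcm against E8-cSGcm (1249), and 8304 and 8767 by adjusted p alone for E15.5-mSGcm against E8-cSGcm (3727) and E8-cDRGcm (4368). The cause of these differences was not tested. Same-numbered libraries did not deviate together over the tested genes (r from -0.0437 to 0.042). These values cannot show whether same-numbered libraries were cultured or prepared together. Under the replicate block 1414, 3444 and 2288 genes were called against control. Precision is limited by 2 libraries a group. Reads per library were also few for ULBP1 (3 to 39), ULBP2 (0 to 11) and ULBP3 (8 to 34).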
